A study of Danio rerio with 6 samples.

Results

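The genes described here encode the machinery that copies DNA in S phase and repairs it behind the fork: the DNA polymerases with primase, the sliding clamp and its loader, the helicase partners GINS and Cdc45, the single-strand binding protein RPA, the enzymes that join Okazaki fragments, mismatch repair, chromatin assembly and the maintenance of DNA methylation, with Orc1, claspin and the E-type cyclins. They were taken by name from a list of 36 S phase genes that leaves out the licensing factors and the enzymes of nucleotide supply. Of the 36, 35 had a row among the 34289 Ensembl genes of the count tables. No row was matched to clspn, the gene of the checkpoint mediator claspin, which was not analysed here.

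Replication begins at origins marked by the origin recognition complex, where the Mcm helicase is loaded and then activated by Cdc45 and GINS once cyclin E and its kinase become active. Polymerase alpha with primase lays down primers, polymerase epsilon extends the leading strand and polymerase delta the lagging strand, and the clamp Pcna, loaded by RFC, holds the polymerases on DNA. In many vertebrate cell types transcription of these genes is driven by E2f factors and peaks around the entry into S phase.

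RNA was sequenced from osteoblasts, the cells that form bone, taken from scales that were growing back in zebrafish. All fish carried osx:H2A-mCherry, which marks nuclei of cells in which the osterix (sp7) reporter sequence is active, and osx:Venus-hGeminin, a fluorescent protein with the degradation signal of geminin, which builds up in S, G2 and M phase. The scales were collected 4 days after plucking, and live mCherry-positive cells were sorted into a Venus-hGeminin-positive gate (3 libraries) and a Venus-hGeminin-negative gate (3 libraries), each library from a pool of about 3 to 5 fish. For every library the sample records give 50 scales in 3 rows per side and 1 h of digestion with Liberase. The study set the gates against each other to compare osteoblasts of high and low Erk activity. The sample labels give the Geminin-positive libraries as high Erk and the Geminin-negative libraries as low Erk, whereas the design text states that reporter and Erk activity run opposite to each other, so that only the gate is used as a name here. The labels used here state no age, sex or strain of the fish, and nothing in the labels says whether the libraries of a gate came from separate sorts, so p-values measure the spread between these libraries, which may be partly technical.

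Total counts were 16482720 to 19087246 in the Geminin-positive and 15854710 to 34472612 in the Geminin-negative libraries. Values below are CPM, read counts relative to library size, after scaling by the trimmed mean of M values (TMM), and the log2 fold change is that of the Geminin-positive over the Geminin-negative gate. The geminin gene gmnn had 1516, 1633 and 1518 CPM in the Geminin-positive libraries and 426, 365 and 401 CPM in the Geminin-negative libraries, and passed the test (edgeR adjusted p = 0.0106). Whether reads from the geminin part of the reporter added to this row was not tested. The osterix gene sp7 had 271, 179 and 150 CPM in the Geminin-positive and 138, 126 and 72.4 CPM in the Geminin-negative libraries (edgeR adjusted p = 0.464). Of 14 osteoblast markers 13 passed the filter on low counts, all but bglap, with 7 positive and 6 negative log2 fold changes and a median of 0.02. At an adjusted p under 0.05 edgeR called 2 of them higher, col1a1a and col1a1b, and 0 lower. Their summed level, 286640 to 554958 CPM in the Geminin-positive and 107349 to 208823 CPM in the Geminin-negative libraries, is mostly that of type I collagen, col10a1a and sparc, and runx2a, runx2b, col10a1a, spp1, entpd5a and ifitm5 had negative values. Leukocyte markers, 18 of 20 with a row, summed to 86.4 to 258 CPM in the Geminin-positive and 2532 to 3559 CPM in the Geminin-negative libraries, and coro1a, tyrobp, fcer1g and lck were at 0 counts in all Geminin-positive libraries. All 14 tested leukocyte markers had negative log2 fold changes, and edgeR called 5 of them lower. Osteoclast markers, 8 of 9 with a row, summed to 442 to 490 CPM in the Geminin-positive and 1248 to 1467 CPM in the Geminin-negative libraries. Of the 7 tested, 1 was positive and 6 were negative, and edgeR called 2 lower, ctsk and itgb3b. Over all 12855 genes tested, 0.124% were called higher and 0.482% lower. Leukocytes can divide and then express the genes described here. The part of these cells in the differences below was not tested, and in sorted bulk RNA fewer cells of a type and less RNA per cell cannot be told apart.

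No single replication gene was called different between the gates by edgeR, and the genes were not tested as a set. Of the 33 that passed the filter on low counts, 0 were called higher and 0 lower by edgeR at an adjusted p under 0.05, where 0.124% of all 12855 genes tested were called higher and 0.482% lower. At an unadjusted p under 0.05 there were 2, pcna and ccne2, both higher, beside 3.64% of all genes higher and 5.76% lower. DESeq2 called 1 member, ccne2, which was higher, where it called 1.56% of all genes higher and 3.49% lower, and limma-voom called 0, beside 0.327% of all genes higher and 0.545% lower. The Geminin-positive and Geminin-negative libraries did not overlap in 6 members. Of these, ccne2, pcna, uhrf1 and gins3 were higher in every Geminin-positive library (12.1% of 33, against 8.09% of all genes) and orc1 and gins2 were lower (6.06%, against 10.3% of all genes). Both shares are near those of the whole table. With fewer libraries more genes of any kind stand apart. The members without overlap numbered 11 without Geminin-positive replicate 1 (33.3%, against 28.7% of all genes), 12 without Geminin-negative replicate 1 (36.4%, against 30.0%) and 10 without Geminin-negative replicate 3 (29.4%, against 26.4%). They numbered 8 without each of the other 3 libraries (23.5%, against 24.6% to 26.5%).

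Together the 35 genes took 0.0545%, 0.0512% and 0.0640% of all counts in Geminin-positive replicates 1 to 3, and 0.0416%, 0.0576% and 0.0788% in Geminin-negative replicates 1 to 3. The Geminin-positive values lay inside the range of the Geminin-negative ones. Such a share, like scaling by library size alone, is lowered where abundant genes take more of the counts. The osteoblast markers, mostly collagen genes and sparc, summed to 286640 to 554958 CPM in the Geminin-positive libraries. In the Geminin-negative libraries they summed to 107349 to 208823 CPM, and their part in the shares was not tested. After TMM scaling the summed level was 571, 704 and 736 CPM in the Geminin-positive and 338, 545 and 634 CPM in the Geminin-negative libraries, again with overlap. A positive log2 fold change was found in 23 of the 33 tested members (69.7%) and in 49.6% of all genes, with medians of 0.35 and -0.01. Library size alone, in place of TMM, moved the median of all genes by -0.46. The median of the members was then -0.07, with 14 of 33 positive. Relative to the median of all genes it was 0.40 higher, against 0.36 with TMM. A change of scaling moves most genes by a similar amount, so values relative to that median change little by construction. They do not bear on the direction, here or for the single genes below. Leaving out Geminin-negative replicate 1 narrowed the gap between the medians to 0.12, and leaving out Geminin-negative replicate 3 widened it to 0.67.

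**Figure D1:**
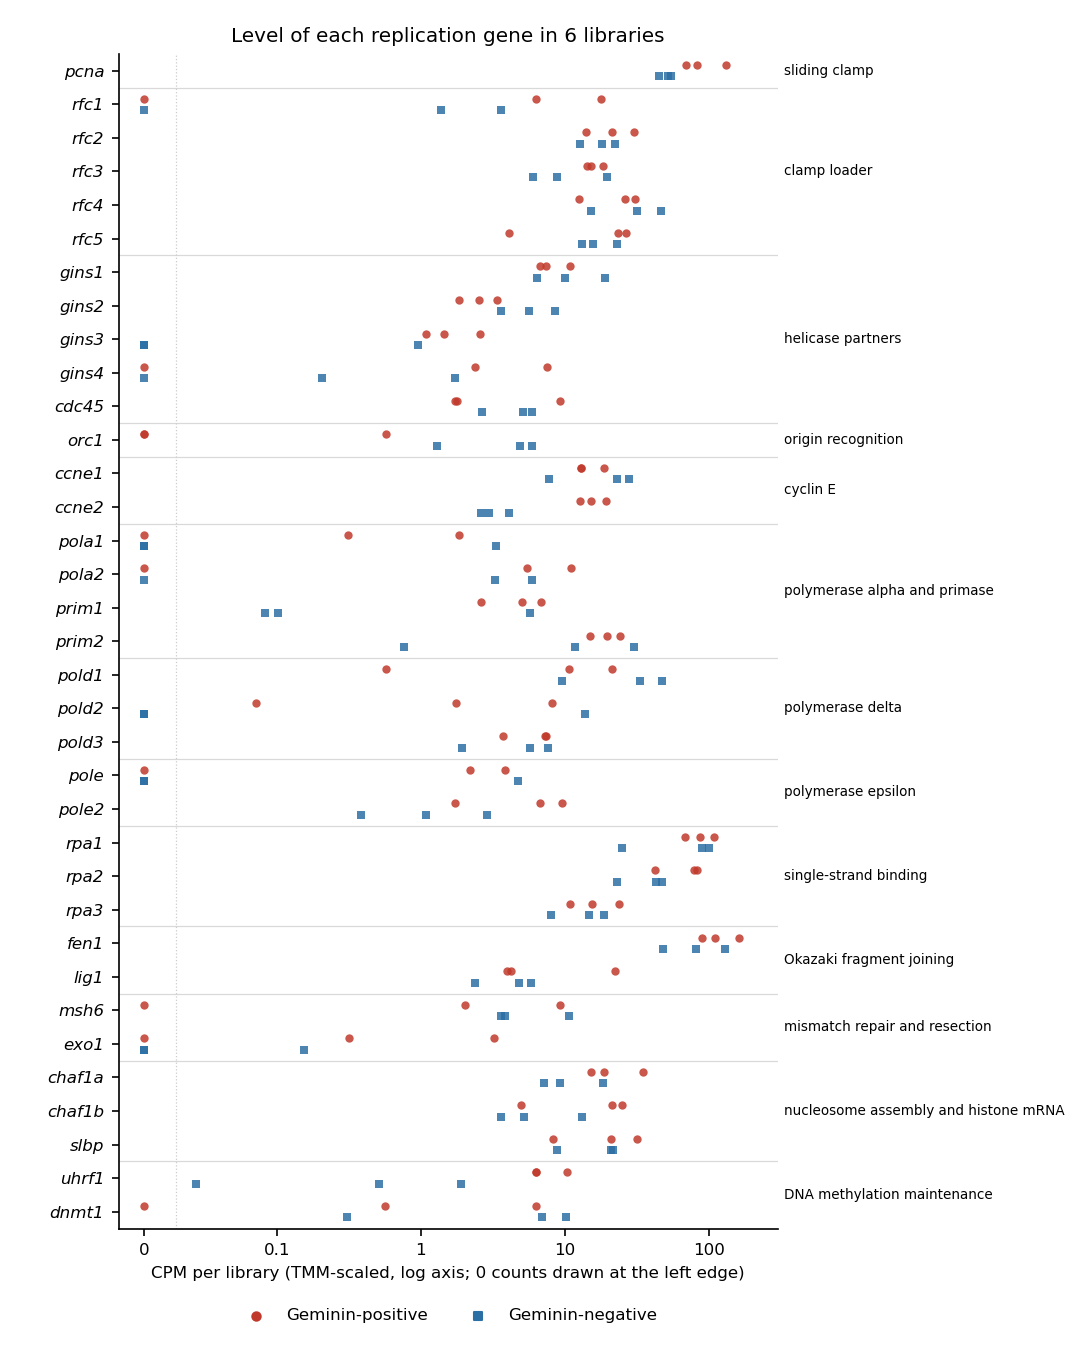
CPM (TMM-scaled, log axis) of the 35 replication genes in each library, grouped by role, with circles for the 3 Geminin-positive and squares for the 3 Geminin-negative libraries; libraries with 0 counts are drawn at the left edge. The gates overlap in most rows, while the circles and squares of ccne2, pcna, uhrf1, gins3, orc1 and gins2 do not overlap.

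Of the E-type cyclin genes, ccne2 had gates that stood apart and ccne1 had gates that overlapped, and the difference between the copies was not tested. Cyclin E activates Cdk2 at the transition from G1 to S phase. The copy ccne2 (ENSDARG00000098529, danRer10 chromosome 16, 40625710 to 40635748) had 19.2, 12.8 and 15.2 CPM in the Geminin-positive libraries and 4.09, 2.61 and 2.97 CPM in the Geminin-negative libraries. Every Geminin-positive library was above every Geminin-negative one, under TMM and under library size alone. The means were 15.8 ± 3.21 and 3.22 ± 0.773 CPM (SD, n = 3 each), a ratio of 4.89. The log2 fold change was 2.29 (SE 0.81, 95% interval 0.45 to 4.13), with an edgeR adjusted p of 0.348. Over the alternatives the adjusted p ran from 0.0187, with DESeq2, to 0.716, and DESeq2 gave the only value under 0.05. The row of ccne2 overlaps a row on the opposite strand that held at most 6 counts in a library.

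The other copy, ccne1 (ENSDARG00000098622, chromosome 7), had 12.9, 13.0 and 18.8 CPM in the Geminin-positive libraries and 7.72, 28.0 and 23.2 CPM in the Geminin-negative libraries, which overlap (log2 fold change -0.40, SE 0.60). A share of the counts of both copies does not depend on the scaling between libraries, and it was computed after their values were seen. The ccne2 share was 59.8% (95% Wilson interval 55.5 to 64.0), 49.7% (44.6 to 54.9) and 44.8% (40.6 to 49.0) in the Geminin-positive libraries. It was 34.6% (28.8 to 41.0), 8.51% (7.01 to 10.3) and 11.4% (9.03 to 14.2) in the Geminin-negative libraries. The shares of the gates did not overlap. The intervals cover counting error only, and the shares are of counts without a length correction, so they compare libraries and not the copies.

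The origin recognition gene orc1 (ENSDARG00000039217, chromosome 6, 33947047 to 33963193), whose product is the largest subunit of that complex, had 9, 0 and 0 counts in the Geminin-positive libraries and 95, 215 and 29 counts in the Geminin-negative libraries. In CPM this was 0.572, 0 and 0 against 4.86, 5.90 and 1.30. The gates did not overlap, and the mean level was 21.1-fold lower in the Geminin-positive gate, a ratio that rests on the 9 counts of Geminin-positive replicate 1, without which the gate is at 0. With so few counts the interval of the log2 fold change was wide (-4.35, SE 2.53, 95% interval -10.13 to 1.42) and the gene did not pass (edgeR adjusted p = 0.795). Over the alternatives the adjusted p was 0.302 to 0.992 and the log2 fold change -9.44, without Geminin-positive replicate 1, to -3.78, without Geminin-positive replicate 3. Among the other subunits of the complex, which belong to the licensing genes, orc2 had 0 counts in the Geminin-positive libraries and 73, 0 and 78 counts in the Geminin-negative libraries, which overlap at 0, and orc3, orc4, orc5 and orc6 had log2 fold changes of 0.61, 0.06, 0.95 and 0.05, all with overlapping libraries.

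The helicase partners were low and 0 of the 5 passed, with 2 positive and 3 negative log2 fold changes. GINS, built of 4 subunits, and Cdc45 bind the Mcm ring to form the active helicase. The subunit gene gins2 (ENSDARG00000002304, chromosome 18, 30502776 to 30521235) had 1.84, 2.52 and 3.38 CPM in the Geminin-positive and 3.58, 8.57 and 5.67 CPM in the Geminin-negative libraries. The gates did not overlap, narrowly, and the log2 fold change was -1.199 (SE 1.379, edgeR adjusted p = 1.00). In gins3 (ENSDARG00000038847, chromosome 25, 13303567 to 13312360), 17, 20 and 41 counts stood in the Geminin-positive libraries and 0, 35 and 0 in the Geminin-negative libraries. Its gates stood apart only in CPM, at 1.08, 1.44 and 2.57 against 0, 0.961 and 0, since the library with 35 counts was the most deeply sequenced, and its row overlaps that of ZNRF1, with up to 214 counts. The subunit gene gins1 was the most abundant of this group per length, with 7.43, 10.9 and 6.71 CPM in the Geminin-positive and 9.97, 6.45 and 18.9 CPM in the Geminin-negative libraries. Summed over gins1 to gins4 and cdc45, the level was 12.1, 19.0 and 29.4 CPM in the Geminin-positive and 16.4, 22.8 and 30.5 CPM in the Geminin-negative libraries, nearly the same range.

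Of the 9 members for the replicative polymerases and primase, 8 were tested, 0 were called and all 9 overlapped between the gates. The subunit genes pold4, pole3 and pole4 are not members and were read with the other fork genes. The gene of the catalytic subunit of polymerase delta, pold1 (ENSDARG00000027689, chromosome 3), had 0.572, 10.7 and 21.3 CPM in the Geminin-positive and 9.51, 47.6 and 33.4 CPM in the Geminin-negative libraries. Its 3 Geminin-positive values spanned 37.3-fold, so that the log2 fold change of -1.48 had an SE of 1.07 (edgeR adjusted p = 0.929). The primase subunit gene prim2 had 19.8, 14.9 and 24.3 CPM in the Geminin-positive and 30.2, 11.7 and 0.765 CPM in the Geminin-negative libraries. The catalytic primase gene prim1 had 5.02, 6.85 and 2.63 CPM in the Geminin-positive libraries, whereas in the Geminin-negative libraries it had 0.102, 0.0824 and 5.71 CPM. The accessory subunit gene of polymerase epsilon, pole2, had 1.72, 9.52 and 6.77 CPM in the Geminin-positive and 2.86, 0.385 and 1.08 CPM in the Geminin-negative libraries. The pole2 row lies on chromosome 13 in danRer10 and overlaps that of PPP1R21 on the same strand. In the RefSeq annotation used for names pole2 is on chromosome 17, and the other 34 rows lie on the chromosome given there.

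The catalytic subunit genes of polymerases alpha and epsilon were barely detected. The gene pola1 had 29, 0 and 5 counts in the Geminin-positive and 65, 0 and 0 counts in the Geminin-negative libraries and did not pass the filter. The gene pole had 60, 0 and 35 counts in the Geminin-positive and 92, 0 and 0 counts in the Geminin-negative libraries. In both gates 1 library or more gave 0 counts for each of these long transcripts. The remaining members of this group, pola2, pold2 and pold3, had log2 fold changes of 0.84, -0.46 and 0.26 with SEs of 2.35, 2.66 and 1.203.

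The clamp, the single-strand binding complex and the flap endonuclease held the largest share of the counts. The 4 most abundant members, fen1, rpa1, pcna and rpa2, held 51.6% of all counts of the 35 genes. The clamp gene pcna (ENSDARG00000054155, chromosome 10, 40900618 to 40905471), whose product encircles DNA and tethers the polymerases, had 69.6, 131 and 82.6 CPM in the Geminin-positive and 45.0, 51.7 and 54.8 CPM in the Geminin-negative libraries. The gates did not overlap. The means were 94.4 ± 32.5 and 50.5 ± 4.99 CPM (SD, n = 3 each), a ratio of 1.87. The log2 fold change of 0.90 (SE 0.32, 95% interval 0.17 to 1.64) did not pass (edgeR adjusted p = 0.355, and 0.211 to 0.820 over the alternatives). Scaled by library size alone, pcna had 66.4, 95.3 and 71.8 CPM in the Geminin-positive and 55.5, 54.7 and 68.0 CPM in the Geminin-negative libraries, which overlap.

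RPA coats the single-stranded DNA that the helicase exposes. Its subunit gene rpa1 (ENSDARG00000003938, chromosome 15) had 87.4, 109 and 68.7 CPM in the Geminin-positive and 24.8, 88.9 and 99.6 CPM in the Geminin-negative libraries. The gene rpa2 (ENSDARG00000037188, chromosome 16) had 42.4, 78.4 and 83.1 CPM in the Geminin-positive and 23.0, 47.6 and 42.7 CPM in the Geminin-negative libraries. The small subunit gene rpa3 (ENSDARG00000002613, chromosome 19) had 10.9, 15.4 and 23.9 CPM in the Geminin-positive and 8.03, 14.7 and 18.6 CPM in the Geminin-negative libraries. The gates overlapped in all 3 genes, and in each the lowest value was that of Geminin-negative replicate 1. The log2 fold changes were 0.31 (95% interval -0.80 to 1.43), 0.85 (-0.09 to 1.78) and 0.28 (-1.10 to 1.66). The rpa1 difference was -0.08 without Geminin-negative replicate 1, and that of rpa3 was -0.06 without Geminin-positive replicate 3. With library size alone, where the median of all genes is -0.47, they were -0.16 and -0.20. Relative to that median they were 0.31 and 0.27, against 0.32 and 0.29 with TMM. The rpa2 row overlaps that of themis2, which held at most 108 counts in a library.

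RFC opens the clamp and places it on DNA. Its genes rfc2, rfc3, rfc4 and rfc5 had levels of 4.07 to 30.5 CPM in the Geminin-positive and 6.03 to 46.7 CPM in the Geminin-negative libraries. Their log2 fold changes were 0.30, 0.48, -0.44 and 0.05. The rfc4 row overlaps that of pycr1b, which held 1171 to 2576 counts in a library, against 198 to 1154 for rfc4. The large subunit gene rfc1 was less even, with 281, 88 and 0 counts in the Geminin-positive and 70, 50 and 0 counts in the Geminin-negative libraries. All 5 overlapped between the gates. Summed, RFC stood at 69.9, 88.0 and 103 CPM in the Geminin-positive and 53.2, 77.4 and 107 CPM in the Geminin-negative libraries.

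On the lagging strand, Fen1 removes the flap ahead of each Okazaki fragment and Lig1 seals the nick. The gene fen1 (ENSDARG00000011404, chromosome 24, 11768375 to 11779293) was the most abundant of the 35 genes, with 90.0, 111 and 161 CPM in the Geminin-positive and 48.1, 81.8 and 130 CPM in the Geminin-negative libraries. The gates overlapped, and the log2 fold change was 0.48 (SE 0.40, 95% interval -0.45 to 1.40) with TMM and -0.01 with library size alone. Relative to the median of all genes these are 0.49 and 0.47. Its row overlaps that of TM9SF1, which held 1086 to 4640 counts, and reads of the 2 genes cannot be told apart where they overlap if strand was not used. The ligase gene lig1 had 22.4, 4.25 and 3.95 CPM in the Geminin-positive and 5.78, 4.78 and 2.39 CPM in the Geminin-negative libraries, so its mean difference rested on Geminin-positive replicate 1. The repair genes were low. The mismatch recognition gene msh6 had 32, 129 and 0 counts in the Geminin-positive and 71, 387 and 85 counts in the Geminin-negative libraries. The exonuclease gene exo1 had 5, 0 and 51 counts in the Geminin-positive and 3, 0 and 0 counts in the Geminin-negative libraries and did not pass the filter.

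**Figure D2:**
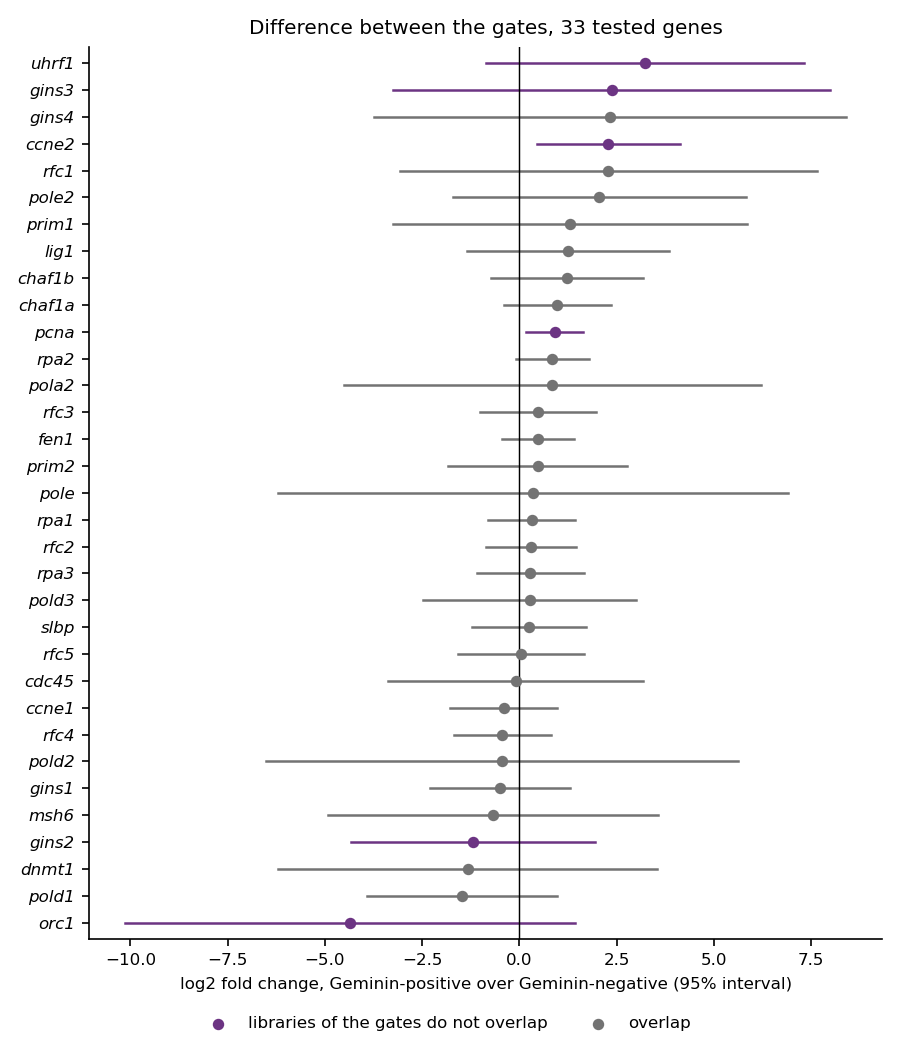
Log2 fold change of the Geminin-positive over the Geminin-negative gate with its 95% interval from edgeR for the 33 tested genes, in order of size; purple marks genes whose libraries do not overlap between the gates. The intervals of ccne2 and pcna are the only 2 that leave out 0, and those of genes with few counts span several log2 units.

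Of the 3 members for nucleosome assembly and histone mRNA, chaf1a, chaf1b and slbp, 0 were called, and each had a positive log2 fold change with TMM. CAF-1 places new histones on replicated DNA. Its large subunit gene chaf1a (ENSDARG00000062152, chromosome 22) had 18.7, 15.1 and 34.8 CPM in the Geminin-positive and 7.16, 18.3 and 9.31 CPM in the Geminin-negative libraries. The partner gene chaf1b had 4.96, 21.4 and 24.95 CPM in the Geminin-positive and 5.22, 3.63 and 13.1 CPM in the Geminin-negative libraries. Both overlapped between the gates, with log2 fold changes of 0.98 (SE 0.60) and 1.23 (SE 0.86). The gene slbp, whose product binds the stem-loop of replication-dependent histone mRNAs, had 31.8, 21.1 and 8.21 CPM in the Geminin-positive and 21.1, 8.87 and 21.7 CPM in the Geminin-negative libraries. Its small difference (log2 fold change 0.24) was -0.23 without Geminin-positive replicate 1 and -0.10 without Geminin-negative replicate 2. With library size alone it was -0.24, which is 0.23 above the median of all genes, against 0.25 with TMM. Summed over these 3 genes the level was 55.4, 57.5 and 68.0 CPM in the Geminin-positive and 33.4, 30.8 and 44.1 CPM in the Geminin-negative libraries, without overlap. With library size alone the same sums were 52.9, 41.8 and 59.1 CPM in the Geminin-positive and 41.3, 32.5 and 54.8 CPM in the Geminin-negative libraries, with overlap.

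Uhrf1 binds hemimethylated DNA at the fork and brings in Dnmt1, which copies the methylation to the new strand. The gene uhrf1 (ENSDARG00000103409, chromosome 22, 3955795 to 3986463) had 163, 88 and 100 counts in the Geminin-positive libraries and 10, 1 and 42 counts in the Geminin-negative libraries. In CPM this was 10.4, 6.34 and 6.27 against 0.511, 0.0275 and 1.89. Every Geminin-positive library was above every Geminin-negative one, under TMM and under library size alone, and the ratio of the means was 9.46. The log2 fold change of 3.24 (SE 1.79, 95% interval -0.85 to 7.32) did not pass (edgeR adjusted p = 0.744, and 0.271 to 0.906 over the alternatives). Over the same alternatives the log2 fold change was 2.67, without Geminin-negative replicate 2, to 4.75, without Geminin-negative replicate 3. The partner gene dnmt1 (ENSDARG00000030756, chromosome 3) had 100, 0 and 9 counts in the Geminin-positive and 6, 372 and 154 counts in the Geminin-negative libraries. Its log2 fold change was -1.33 (SE 2.14, 95% interval -6.21 to 3.55), and the difference between uhrf1 and dnmt1 was not tested. Of the counts of both genes, a share again computed after the values were seen, uhrf1 took 62.0%, 100% and 91.7% in the Geminin-positive libraries and 62.5%, 0.268% and 21.4% in the Geminin-negative libraries. These shares overlap through Geminin-negative replicate 1, where both genes together had few counts (95% Wilson interval 38.6 to 81.5).

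Levels of different genes can be compared only per length of transcript. Per kilobase of exon, the mean level of the members over the 6 libraries spanned 396-fold. At the top were fen1 (67.6 CPM per kb), pcna (50.1), rpa2 (45.9), rpa1 (32.9), rpa3 (23.7) and slbp (13.5). At the bottom were pole (0.250), exo1 (0.192) and then pola1. The 3 RPA genes lay within a narrow band, at 36.5, 59.0 and 26.0 CPM per kb for rpa1, rpa2 and rpa3 in the Geminin-positive gate and 29.4, 32.8 and 21.5 CPM per kb in the Geminin-negative gate. In RFC the 4 small subunit genes had 8.67 to 13.5 CPM per kb in the Geminin-positive gate and 6.22 to 14.4 CPM per kb in the Geminin-negative gate, while rfc1 had 1.21 and 0.247 CPM per kb. Within GINS, gins1 had 7.06 CPM per kb in the Geminin-positive gate and 9.97 in the Geminin-negative gate, and gins4 had 0.809 and 0.159. Both rfc1 and gins4 had libraries at 0. Subunit genes outside the members were not part of this ranking. Over the 6 libraries pold4 had a mean of 86.7 CPM per kb, above fen1, while pole3 had 27.1 and pole4 1.53. The chromatin replication partner gene rbbp4 had 25.9 CPM per kb.

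**Figure D3:**
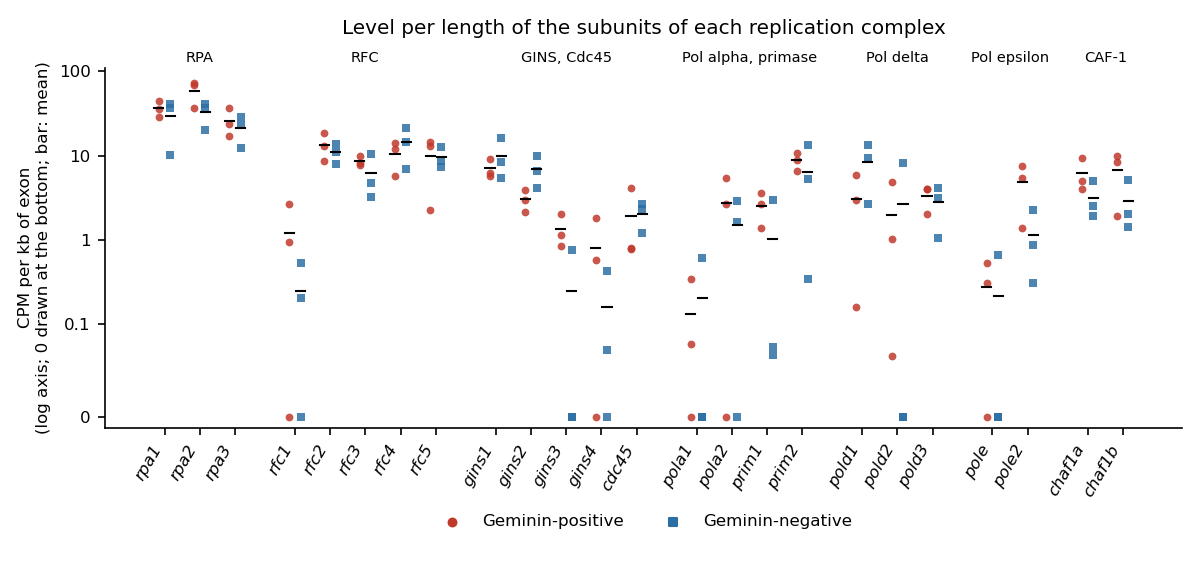
CPM per kilobase of exon (log axis) of the members that encode subunits of 7 replication complexes in each library, circles for Geminin-positive, squares for Geminin-negative, bars for the mean of the gate. Subunit genes outside the members, such as pold4 and pole3, are not drawn. Among the genes drawn, the RPA genes stand highest in both gates, and several, such as gins3, pola1 and pole, have libraries at 0.

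Detection varied from library to library. Of the 35 genes, 34, 29 and 32 had a count in Geminin-positive replicates 1 to 3, and 33, 30 and 29 in Geminin-negative replicates 1 to 3. A count in all 6 libraries was found for 24, and 11 were at 0 in at least 1. Of 28 members with at least 100 counts in a Geminin-positive library, 5 were at 0 in another library of that gate (17.9%, against 12.0% of all such genes), and of 26 in the Geminin-negative gate 2 were (7.69%, against 21.6%). The largest SEs were those of members below 10 CPM, though the ranges overlapped between levels. The 6 members with a mean of at least 20 CPM had SEs of 0.32 to 1.07 log2 units, the 10 members between 10 and 20 CPM had 0.51 to 1.00, and the 17 below 10 CPM had 0.81 to 2.87. The 95% interval held a difference of 2 log2 units in at least 1 direction for 22 of the 33 tested members and in both directions for 11, so the absence of calls does not show equal levels.

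Other genes of replication were read from lists set by function, and edgeR called 0 of them, while DESeq2, which called 1.56% of all genes higher, called rad54l, tfdp1b and tk1, each higher, and limma-voom called 0. At an unadjusted p under 0.05 edgeR had 1 gene higher in each of the fork, S phase repair, E2f and nucleotide lists, 0 in the chromatin list and 2 lower in the licensing list. Of 18 tested genes of the fork and of origin firing 12 were positive, with a median log2 fold change of 0.30, and 0 were called. The S-phase and mitotic cyclin gene ccna2 had 20.1, 24.7 and 51.0 CPM in the Geminin-positive and 0, 0 and 4.77 CPM in the Geminin-negative libraries, which do not overlap (edgeR adjusted p = 0.524). Genes of S phase repair and checkpoint had 7 of 11 positive, with a median of 0.62 and 0 called. Among them rad54l, a motor protein of homologous recombination, had 266 counts in the Geminin-positive libraries and 0 in the Geminin-negative libraries. Its log2 fold change of 9.93 had an SE of 2.58 and did not pass (edgeR adjusted p = 0.214). Against a floor of 3 counts over the gate the ratio was 152, which leaves out the spread between libraries and is not a lower bound. The chromatin replication partners had 3 of 6 positive, with a median of 0.15 and 0 called. E2f and pocket protein genes had 5 of 10 positive, with a median of 0.02 and 0 called, and the E2f partner gene tfdp1b had 7.37, 13.8 and 18.6 CPM in the Geminin-positive and 0.818, 0 and 0.990 CPM in the Geminin-negative libraries.

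The licensing genes, which load the Mcm helicase in G1 phase, had 6 of 12 positive, with a median of -0.09 and 0 called. Their helicase genes mcm3 and mcm4 were lower at an unadjusted p under 0.05, mcm3 with 7.94, 12.0 and 12.0 CPM in the Geminin-positive and 16.3, 36.3 and 38.5 CPM in the Geminin-negative libraries. Nucleotide supply genes had 4 of 6 positive, with a median of 0.78 and 0 called, and the thymidine kinase gene tk1 had 13.5, 13.6 and 21.4 CPM in the Geminin-positive and 1.02, 0 and 0 CPM in the Geminin-negative libraries. Genes of G2 phase and mitosis were all positive, 24 of 24, with a median of 3.08. The reporter used for the sort builds up in S, G2 and M phase, so the direction of this list is no independent result. Some of its genes passed the filter only through the Geminin-positive libraries, such as ncapd2, with 105, 181 and 438 counts there and 0 in each Geminin-negative library. Of these edgeR called 0, limma-voom 1 (cdk1) and DESeq2 6, all higher, and 8 were higher at an unadjusted p under 0.05 by edgeR. The replication members, with 23 of 33 positive and a median of 0.35, lay between the licensing and the G2 and mitosis genes. The difference between these lists was not tested.

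**Figure D4:**
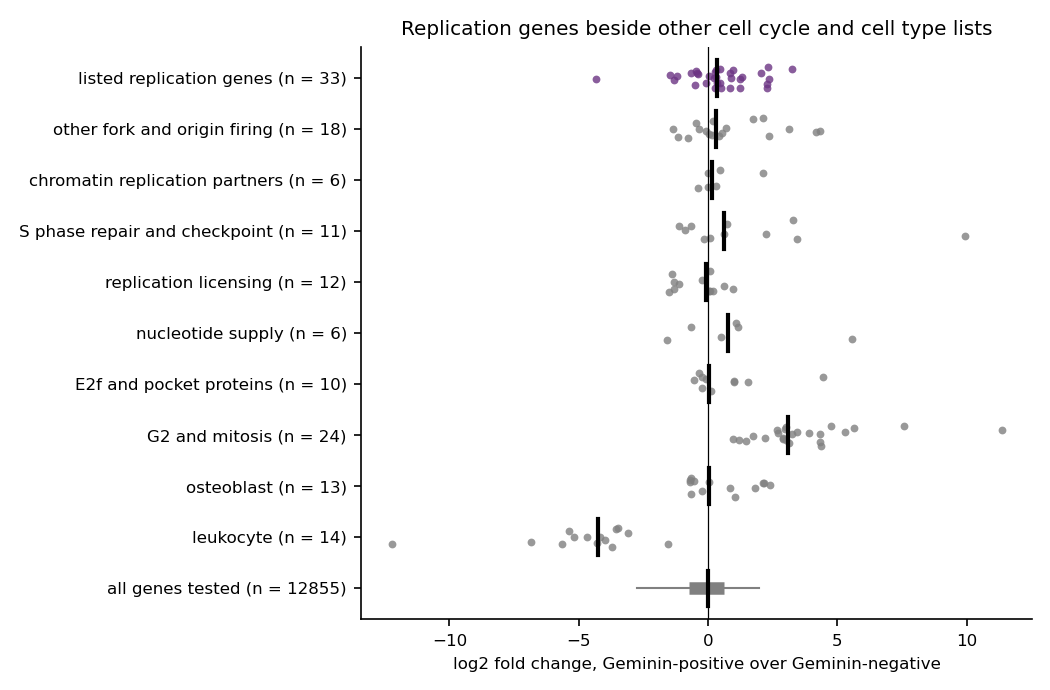
Log2 fold change of the Geminin-positive over the Geminin-negative gate for each tested gene of the replication members (purple) and of the other lists (grey), with a black bar at the median of each list; for all 12855 genes the thick bar covers the 25th to 75th percentile, from -0.74 to 0.63, and the thin line the 5th to 95th percentile, from -2.75 to 1.98. The replication genes centre near 0.35, the G2 and mitosis genes near 3.08 and the leukocyte genes near -4.24.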

How the data were processed

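Each library has a deposited table of raw counts by Ensembl gene, with no normalization. The submitters' processing notes name danRer10 as the build and list featureCounts 1.6.1, TopHat2 2.1.1 and Trim Galore 0.4.1. Strand setting, annotation release and the treatment of reads with several alignments: not given in the sources used here. Of the 35 rows analysed, 11 overlap another gene's row. Among them, prim1, pola2 and msh6 overlap TFIP11, DIMT1 and fbxo11a, which held up to 456, 158 and 537 counts in a library. Exon length, another measure in the deposited tables, was used to scale levels per kilobase.

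Gene symbols were looked up by Ensembl identifier. Where a symbol names several rows or leaves off a copy letter, the chromosome in RefSeq annotation of GRCz12tu decided. No nucleotide or protein sequence was read. Counts were fitted with edgeR 4.0.16 in R 4.3.3 (filterByExpr, TMM, robust quasi-likelihood test of the Geminin-positive against the Geminin-negative gate, Benjamini-Hochberg adjustment over all 12855 genes, threshold 0.05). Each SE was derived from the log2 fold change and its F statistic. The fit was tested on simulated data, where the share of false calls at an adjusted p under 0.05 was above that threshold, so adjusted p-values near it are to be read with caution. The alternatives were DESeq2 1.42.0, limma-voom (limma 3.58.1), other scalings and filters, a replicate block and leaving out each library.

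The members and lists were chosen with earlier results of these data known. Values in every library are given for members with an unadjusted p under 0.05, with gates that do not overlap, or among the 6 highest per kilobase. Other members are shown by role and were picked after their values were seen. Up to 3 genes of each other list were eligible by smallest p, and orc2 to orc6 and the genes at 0 in a gate were added afterwards. Markers of keratinocytes, dermal fibroblasts, erythrocytes and endothelium were read as well.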

Additional observations from a re-analysis of the deposited data

How the results depend on the processing

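The number of members called stayed at 0 in all alternatives except DESeq2, where it was 1. The median log2 fold change of the members was 0.204 to 0.57 with 1 library left out, -0.071 with library size alone, 0.645 with limma-voom and 0.659 with the replicate block. The number of members whose gates do not overlap was 6 in the main analysis and 5 with library size alone, where pcna overlaps. It was 2 with the stricter filter, which keeps 21 members. The share of all genes was not computed with library size alone or with the stricter filter, so these counts cannot be set against it. With 1 library left out it was 8 to 12, where fewer values can overlap and the share of all genes rises too. The number of genes called over the whole table, 78 in the main analysis, was 185 with library size alone, 628 with DESeq2, 557 without a filter and 134 with the replicate block, and 22 to 96 with 1 library left out. It fell to 34 and 40 without Geminin-positive replicates 2 and 3 and to 32, 22 and 25 without Geminin-negative replicates 1, 2 and 3. The cause of these shifts was not tested. The members' share of counts differed by -0.00278 percentage points between the gates, and by -0.01163 to 0.00695 with 1 library left out. Deviations of same-numbered libraries of the 2 gates had correlations of 0.182, 0.058 and 0.040, and 5 of 6 libraries correlated best with their own number. The threshold set for pairing was a correlation of 0.1, which only replicate 1 passed, and the main analysis left the libraries unpaired. Whether the numbers pair the libraries is not known, and the replicate block is the alternative that treats them as paired. The replicate block left the members called at 0. Of the 11 members with full values, ccne2, pcna, uhrf1, orc1, gins2, gins3 and rpa2 kept their direction in every alternative that tested them. All of these but rpa2 have gates that do not overlap in the main analysis. Leaving out 1 library could then hardly turn their direction, so their stability in those settings says little. Library size alone lowered the median of all genes, though not every gene by the same amount. In that setting fen1 (-0.006), rpa1 (-0.162), rpa3 (-0.199) and slbp (-0.243) were negative but remained above the median of all genes (-0.471). The direction turned for rpa1 without Geminin-negative replicate 1 (-0.081), for rpa3 without Geminin-positive replicate 3 (-0.065) and for slbp without Geminin-positive replicate 1 (-0.226) or Geminin-negative replicate 2 (-0.101). With 1 library left out these values reached 0.614 for rpa1, 0.526 for rpa3 and 0.625 for slbp. The SE was at least 0.81 log2 units below 10 CPM.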

Other observations

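Besides rad54l, several replication genes outside the members were at 0 counts in all libraries of a gate. In the Geminin-negative gate these were dtl, a substrate receptor that marks proteins for destruction during S phase, with 0, 80 and 0 counts in the Geminin-positive libraries, and topbp1, which activates the checkpoint kinase Atr, with 10, 0 and 35 counts in the Geminin-positive libraries. In the Geminin-positive gate they were the mismatch repair gene pms2, against 41, 232 and 0 counts in the Geminin-negative libraries, and orc2. The nuclease gene dna2 and the clamp unloading gene atad5a were also at 0 in the Geminin-positive gate, where the Geminin-negative libraries had 0, 55 and 0 counts of dna2 and 58, 0 and 0 counts of atad5a. So was slbp2, against 7, 0 and 0 counts in the Geminin-negative libraries. In each of these genes at least 1 library of the other gate was at 0 as well, so the gates overlap. The homologous recombination gene bard1 and the E2f gene e2f1 were at 0 in both gates.

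Keratinocyte markers summed to 724 to 919 CPM in the Geminin-positive and 820 to 4118 CPM in the Geminin-negative libraries. The 8 tested genes of that list had 1 positive and 7 negative log2 fold changes with a median of -1.36. By edgeR 0 were called, while DESeq2 and limma-voom each called 1, krt4, which was lower. Dermal fibroblast markers, 6 of 8 with a row, summed to 3061 to 6995 CPM in the Geminin-positive and 1487 to 2016 CPM in the Geminin-negative libraries. The fibroblast sum is mostly that of lum, with 2590 to 6622 CPM in the Geminin-positive and 834 to 1454 CPM in the Geminin-negative libraries. The 6 tested genes of that list had 3 positive and 3 negative log2 fold changes with a median of -0.09. Of these edgeR called 0, while DESeq2 and limma-voom each called 1, lum, which was higher. Erythrocyte markers, 3 of 5 with a row, summed to 19.1 to 34.6 CPM in the Geminin-positive and 2.61 to 84.7 CPM in the Geminin-negative libraries. Endothelial markers, 3 of 5 with a row, summed to at most 1.66 CPM in any library.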
